A study of Mus musculus with 8 samples.

Results

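The Toll-like receptor family was examined in parietal bone (a bone of the skull vault) of C57BL6J mouse pups. The 10 genes are the rows of the count table with the symbols Tlr1 to Tlr9 and Tlr13, out of 27133 rows, and were taken by name. The comparison was between groups of 4 libraries each. Isotype pups received a control antibody and anti-CSF1R pups an antibody that blocks CSF1R, the receptor that monocytes, macrophages and osteoclasts need for survival. In both groups the antibody was given transcranially on postnatal days 2, 4 and 6, to deplete myeloid cells, and bone was taken after perfusion on day 9. Libraries carry the numbers of their titles, isotype 2 to 5 and anti-CSF1R 7 to 10, which are not shared between the groups. Whether libraries come from different pups is not stated, and p-values therefore cover the spread of these libraries. The RNA comes from whole bone, so fewer cells of a type and less RNA per cell cannot be told apart.

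Toll-like receptors are membrane proteins of innate immunity that bind microbial products through an outer stretch of leucine-rich repeats and signal through an inner TIR domain. TLR1, TLR2, TLR4, TLR5 and TLR6 sit at the cell surface and bind lipopeptides, lipopolysaccharide or flagellin. TLR3, TLR7, TLR8, TLR9 and TLR13 sit in endosomes and bind nucleic acids. Most signal through the adaptor MyD88, while TLR3 uses TRIF and TLR4 uses both. Macrophages and osteoclast precursors carry several of these receptors, and stromal and endothelial cells carry some too.

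The libraries held 57496279 to 69118931 counts, and the 10 genes took 1606 to 3500 counts of each. Single values ran from 28 counts (Tlr8, anti-CSF1R 10) to 1332 (Tlr4, anti-CSF1R 8), all above a detection floor of 3 counts. Low counts were mostly even (82.8% to 84.7% of values from 1 to 10), as when both mates of a read pair are counted, so counting noise is larger than the counts imply. Bone markers were high throughout: 10 osteoblast and bone genes summed to 151298 CPM or more in each library (CPM, counts scaled to a common library size with TMM factors). Isotype 3 and 4 stood apart. Both held more of the GC-rich transcripts: over genes, GC content and departure from the median library had Spearman correlations of 0.650 and 0.640 there, against -0.371 to -0.029 in the other 6. Mitochondrial transcripts took 0.847% and 0.855% of their counts and 2.03% to 2.80% elsewhere. Results are therefore given with all 8 libraries and without isotype 3 and 4.

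With all 8 libraries, 0 of the 10 genes passed the edgeR threshold (quasi-likelihood test, adjusted p under 0.05 over 17028 genes), where 0.846% of all genes did (0.822% lower and 0.0235% higher). An unadjusted p under 0.05 was seen in 2 of the 10 (Tlr2 and Tlr9) and in 17.9% of all genes. The median log2 fold change, anti-CSF1R minus isotype, was -0.44 over the family and 0.03 over all genes tested. Without isotype 3 and 4, 1 gene passed, Tlr7, the receptor for single-stranded RNA, where 3.06% of all genes passed (2.38% lower and 0.679% higher). The median was then -0.46, and 6 of the 10 genes had an unadjusted p under 0.05 against 15.1% of all genes. With an offset for GC content and transcript length 0 of 10 passed (2.65% of all genes, 2.16% lower and 0.493% higher) and 6 had an unadjusted p under 0.05 (23.8%). On all 8 libraries DESeq2 called 2, Tlr2 and Tlr9, both lower, against 4.56% of all genes (3.69% lower and 0.869% higher), and limma-voom called 0 (0.840% of all genes).

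**Figure D1:**
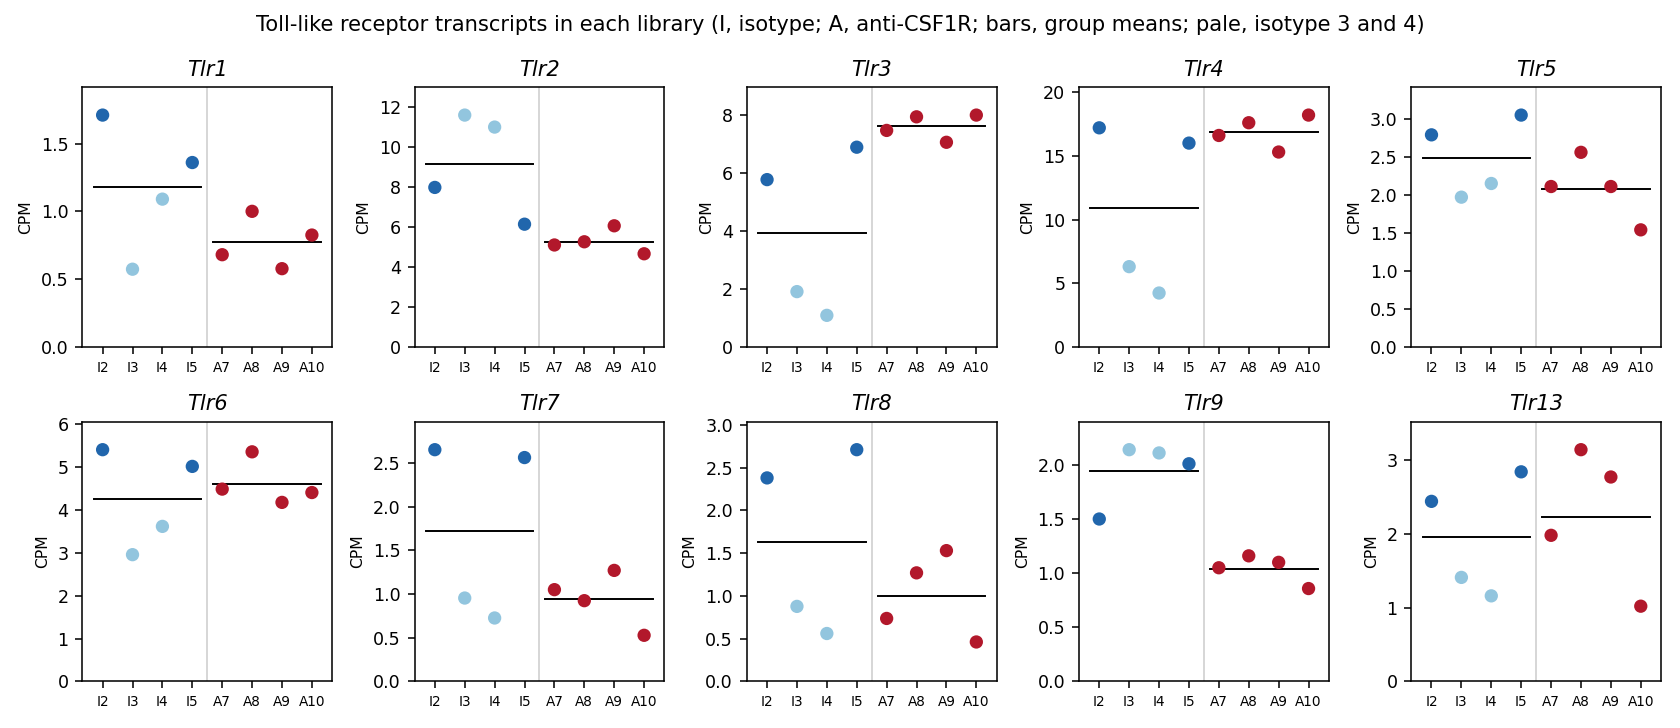
CPM of each Toll-like receptor gene (y axis, from 0) in the 4 isotype libraries (blue, pale for isotype 3 and 4) and the 4 anti-CSF1R libraries (red), with black bars at the group means. Tlr2 and Tlr9 are lower and Tlr3 higher in the anti-CSF1R libraries without overlap, and isotype 3 and 4 are both below isotype 2 and 5 in 8 of the 10 panels.

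The groups did not overlap in 3 of the 10 genes. In Tlr2 and Tlr9 each anti-CSF1R value was below each isotype value, a pattern seen in 8.34% of all genes tested. Tlr3 was higher, as were 6.61% of all genes. Without isotype 3 and 4, 6 genes were lower without overlap (Tlr1, Tlr2, Tlr5, Tlr7, Tlr8 and Tlr9; 12.8% of all genes) and 1, Tlr3, was higher (11.2%). Tlr4, Tlr6 and Tlr13 overlapped in both.

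Among the surface receptors, Tlr2, which pairs with TLR1 or TLR6 to bind bacterial lipopeptides, stood at 7.98, 11.6, 11.0 and 6.14 CPM in isotype 2 to 5. It stood at 5.10, 5.26, 6.06 and 4.66 CPM in anti-CSF1R 7 to 10. The lowest isotype value and the highest anti-CSF1R value lay close together. The log2 fold change was -0.80 ± 0.22 (SE; edgeR adjusted p = 0.180), or 1.74-fold lower, and the DESeq2 adjusted p was 0.0262. Without isotype 3 and 4 it shrank to -0.42 ± 0.15 (edgeR adjusted p = 0.207), as isotype 3 and 4 held the highest levels, and with the offset it was -0.78 ± 0.21 (0.0931).

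The genes of the partners of TLR2 were examined next. Tlr1 stood at 1.71, 0.573, 1.09 and 1.36 CPM with isotype and at 0.680, 1.00, 0.577 and 0.825 CPM with anti-CSF1R. Its groups overlapped through isotype 3, and its log2 fold change was -0.62 ± 0.34 on all libraries and -0.99 ± 0.28 without isotype 3 and 4 (edgeR adjusted p = 0.299 and 0.102). Tlr6 stood at 5.41, 2.96, 3.62 and 5.02 CPM with isotype and at 4.49, 5.36, 4.18 and 4.41 CPM with anti-CSF1R. Its groups overlapped, and its log2 fold change went from 0.12 ± 0.22 to -0.18 ± 0.14 without isotype 3 and 4 (edgeR adjusted p = 0.712 and 0.641). The 95% interval of that last value ran from -0.50 to 0.14. Tlr1 and Tlr6 are close paralogs, and how reads that match both were counted is not given in the sources used here.

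Tlr4, the lipopolysaccharide receptor, was the most abundant member per length in the anti-CSF1R libraries. It stood at 17.2, 6.30, 4.23 and 16.0 CPM with isotype and at 16.6, 17.6, 15.3 and 18.2 CPM with anti-CSF1R. Isotype 2 and 5 lay inside the anti-CSF1R range, while isotype 3 and 4 lay far below it. On all libraries its log2 fold change was 0.63 ± 0.41, without isotype 3 and 4 0.02 ± 0.09, with a 95% interval from -0.18 to 0.22 (edgeR adjusted p = 0.324 and 0.941). Tlr5, the flagellin receptor, stood at 2.79, 1.97, 2.15 and 3.05 CPM with isotype and at 2.11, 2.56, 2.11 and 1.54 CPM with anti-CSF1R. The ranges overlapped, and the log2 fold change was -0.26 ± 0.23 (edgeR adjusted p = 0.421), or -0.49 ± 0.21 without isotype 3 and 4 (0.318).

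Among the endosomal receptors, Tlr9, the receptor for DNA with unmethylated CpG, had the smallest p of the family on all libraries. It stood at 1.50, 2.14, 2.11 and 2.01 CPM with isotype and at 1.05, 1.16, 1.10 and 0.858 CPM with anti-CSF1R. The groups did not overlap, and here isotype 3 and 4 lay close to isotype 5. The log2 fold change was -0.89 ± 0.21, or 1.86-fold lower (edgeR adjusted p = 0.0950; DESeq2 adjusted p = 0.00175), and the interval ran from -1.36 to -0.43. It came to -0.75 ± 0.23 without isotype 3 and 4 and to -0.64 ± 0.18 under the offset (edgeR adjusted p = 0.138 and 0.115). Its log2 fold change stayed between -1.03 and -0.64 over 17 alternatives, with adjusted p-values of 0.00175 to 0.300.

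Tlr7 and Tlr8, related receptors for single-stranded RNA, shared a pattern. Tlr7 stood at 2.65, 0.954, 0.726 and 2.56 CPM with isotype and at 1.05, 0.924, 1.27 and 0.528 CPM with anti-CSF1R. Tlr8 stood at 2.38, 0.878, 0.561 and 2.71 CPM with isotype and at 0.737, 1.27, 1.53 and 0.462 CPM with anti-CSF1R. In both genes isotype 2 and 5 were above each anti-CSF1R library, and isotype 3 and 4 were inside the anti-CSF1R range. On all libraries the log2 fold changes were -0.87 ± 0.46 and -0.71 ± 0.55 (edgeR adjusted p = 0.293 and 0.372). Without isotype 3 and 4 they were -1.46 ± 0.29 and -1.34 ± 0.39, or 2.75-fold and 2.54-fold lower, and Tlr7 passed where Tlr8 did not (edgeR adjusted p = 0.0275 and 0.131). Whether the 2 genes differ in this was not tested. With the offset they were -1.24 ± 0.28 and -1.07 ± 0.36 (edgeR adjusted p = 0.0514 and 0.154). For Tlr7 the 17 alternatives gave adjusted p-values of 0.0275 to 0.472, and for Tlr2 0.0262 to 0.451.

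Tlr3, the receptor for double-stranded RNA, was higher in the anti-CSF1R libraries. It stood at 5.78, 1.91, 1.09 and 6.90 CPM with isotype and at 7.48, 7.95, 7.07 and 8.01 CPM with anti-CSF1R. All 4 anti-CSF1R libraries were above isotype 5, the highest of its group. The log2 fold change was 0.96 ± 0.50 on all libraries (edgeR adjusted p = 0.291), 0.26 ± 0.12 without isotype 3 and 4 (0.351) and 0.59 ± 0.23 with the offset (0.186). Tlr13, a rodent receptor for bacterial ribosomal RNA, stood at 2.44, 1.41, 1.16 and 2.84 CPM with isotype and at 1.98, 3.14, 2.77 and 1.02 CPM with anti-CSF1R. Its groups overlapped throughout, and its log2 fold change was 0.18 ± 0.40, or -0.24 ± 0.38 without isotype 3 and 4 (edgeR adjusted p = 0.749 and 0.836). Anti-CSF1R 10 held the lowest anti-CSF1R level of 6 of the 10 genes, Tlr7, Tlr8, Tlr9 and Tlr13 among them, and the highest of Tlr3 and Tlr4.

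**Figure D2:**
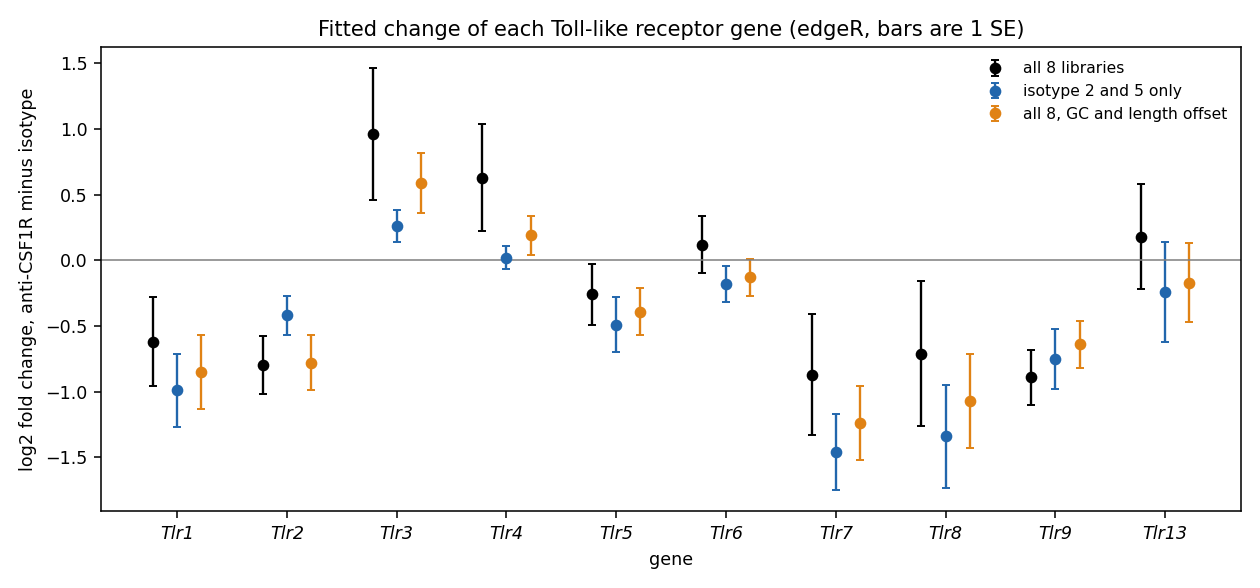
Fitted log2 fold change of each gene (y axis, anti-CSF1R minus isotype, bars are 1 SE) with all 8 libraries (black), isotype 2 and 5 only (blue) and all 8 with a GC and length offset (orange). Tlr7 moves from -0.87 to -1.46 and Tlr4 from 0.63 to 0.02 when isotype 3 and 4 are left out.

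The gap inside the isotype group followed the GC content of the transcripts. Isotype 3 and 4 were both below isotype 2 and 5 in 8 of the 10 genes and both above in the other 2. Tlr4, Tlr3, Tlr8 and Tlr7 had the lowest GC content (39.4%, 40.0%, 40.1% and 41.0%, longest GENCODE M21 transcript) and stood 3.16-fold, 4.23-fold, 3.54-fold and 3.10-fold lower in isotype 3 and 4. Tlr13, Tlr1, Tlr6 and Tlr5, at 43.6% to 47.6% GC, stood 2.06-fold, 1.84-fold, 1.59-fold and 1.42-fold lower. Tlr2 (49.3%) and Tlr9 (56.2%) were 1.60-fold and 1.21-fold higher. The median over all genes tested was 49.9% GC, and 9 of the 10 receptors were below it.

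**Figure D3:**
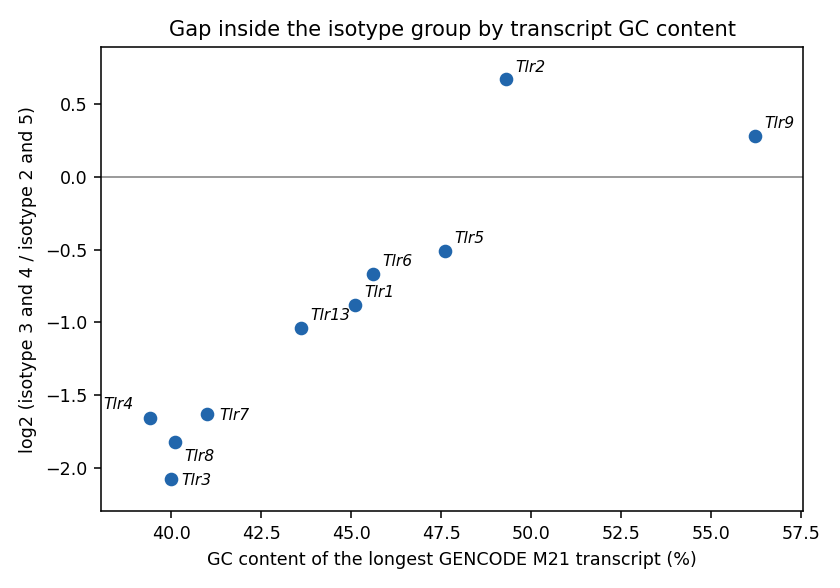
Each point is a gene. The x axis gives the GC content of its longest GENCODE M21 transcript in percent, and the y axis the log2 ratio of the mean CPM of isotype 3 and 4 to that of isotype 2 and 5. The 4 genes near 40% GC lie between -2.08 and -1.63, and Tlr2 and Tlr9 lie above 0.

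Because Tlr3, Tlr4, Tlr7 and Tlr8 are alike in GC content and in length (3.43 to 4.41 kb), they were also compared with each other inside a library. This scale was chosen after the values were seen, so it carries no test. Tlr7 stood at 15.4%, 15.2%, 17.2% and 16.0% of the Tlr4 CPM in isotype 2 to 5 and at 6.30%, 5.26%, 8.29% and 2.90% in anti-CSF1R 7 to 10. Isotype 3 and 4 thus lay with isotype 2 and 5 on this scale, and the groups did not overlap. The means were 15.9% ± 0.913 and 5.69% ± 2.25 (SD, n = 4), 2.99-fold lower on the log scale.

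Tlr8 stood at 13.8%, 13.9%, 13.3% and 16.9% of the Tlr4 CPM with isotype and at 4.43%, 7.21%, 9.99% and 2.54% with anti-CSF1R, again without overlap and 2.70-fold lower. Against Tlr3 in place of Tlr4, Tlr7 took 37.1% to 66.7% with isotype and 6.60% to 18.0% with anti-CSF1R, and Tlr8 39.3% to 51.5% and 5.77% to 21.6%. Tlr3 itself stood at 33.5%, 30.3%, 25.8% and 43.0% of Tlr4 with isotype and at 45.0%, 45.2%, 46.2% and 43.9% with anti-CSF1R. Relative to Tlr4, 6 of the 9 other receptors were lower without overlap (Tlr1, Tlr5, Tlr6, Tlr7, Tlr8 and Tlr9), 1 was higher (Tlr3), and Tlr2 and Tlr13 overlapped. Of all genes tested 9.90% were lower and 0.364% higher without overlap. Tlr4 was 3.16-fold lower in isotype 3 and 4, so genes without that gap have raised ratios to it there. Few of them can be higher with anti-CSF1R, so the 0.364% is not a fair measure for Tlr3, which shares the gap. Its groups were close, at 43.0% in isotype 5 and 43.9% in anti-CSF1R 10. Tlr1, Tlr5, Tlr6 and Tlr9 are richer in GC than Tlr4, and each was highest relative to it in isotype 4. The ratios do not show that Tlr4 was unchanged.

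**Figure D4:**
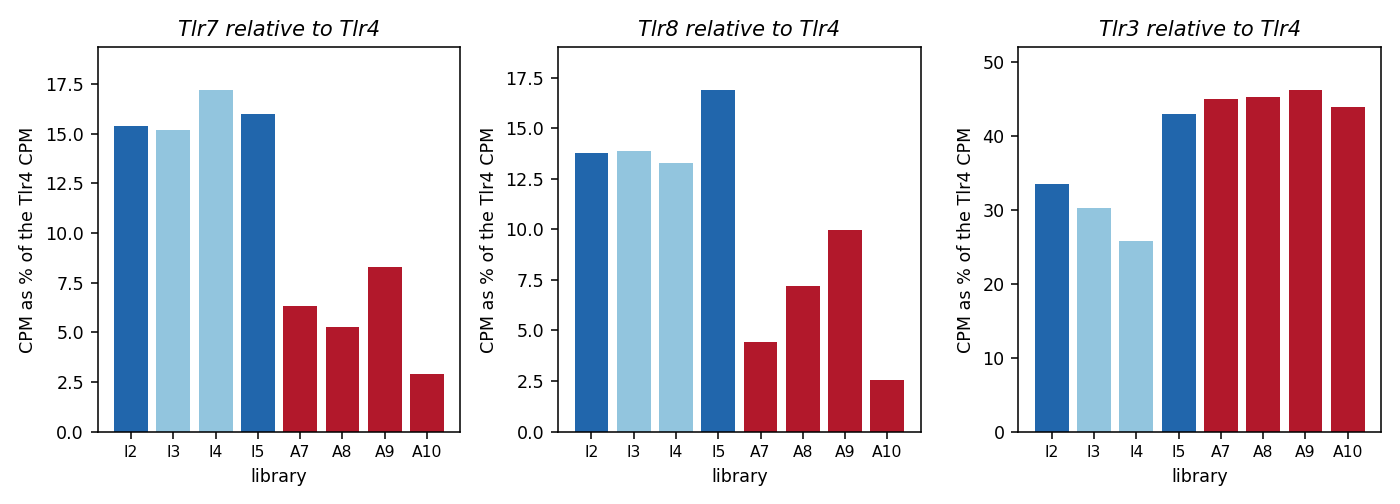
Tlr7, Tlr8 and Tlr3 as a percent of the Tlr4 CPM in the same library (y axis, from 0), in isotype 2 to 5 (blue, pale for 3 and 4) and anti-CSF1R 7 to 10 (red). Tlr7 lies between 15.2% and 17.2% in the 4 isotype libraries and between 2.90% and 8.29% in the 4 anti-CSF1R libraries.

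Levels between genes were compared per kilobase of the longest transcript. With anti-CSF1R, Tlr4 led at 4.15 ± 0.312 CPM per kb (SD, n = 4), 37.6% of the family's total. It was followed by Tlr2 (1.75 ± 0.194), Tlr3 (1.73 ± 0.100) and Tlr6 (1.25 ± 0.141). Tlr13 and Tlr5 came next at 0.549 and 0.544 CPM per kb. Tlr9, Tlr8, Tlr1 and Tlr7 closed the order at 0.299, 0.291, 0.255 and 0.242. The ranges of Tlr2 and Tlr3, of Tlr13 and Tlr5, and of each neighbouring pair among the last 4 overlapped, and the other neighbours did not overlap. In isotype 2 and 5 the order began with Tlr4, Tlr2, Tlr3 and Tlr6 as well (4.08, 2.34, 1.44 and 1.42 CPM per kb), the last pair overlapping. Tlr8 and Tlr7 came sixth and seventh there at 0.742 and 0.668, before Tlr13, which overlapped with Tlr7, and then Tlr1 and Tlr9. With all 4 isotype libraries each neighbouring pair overlapped, Tlr2 came first at 3.04 ± 0.848 and Tlr4 was next at 2.69 ± 1.63. Tlr7 and Tlr8 together took 10.3% and 11.2% of the total of the family in isotype 2 and 5, 5.70% and 4.34% in isotype 3 and 4, and between 2.58% and 7.00% with anti-CSF1R, so the groups overlapped through isotype 3 and 4. Tlr3 and Tlr4 together took 41.5% and 42.7% in isotype 2 and 5, 22.5% and 15.9% in isotype 3 and 4, and between 48.6% and 60.0% with anti-CSF1R.

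Macrophages are a known source of most of these receptors. Of 16 macrophage markers 15 were tested and 8 fell on all libraries, with a median log2 fold change of -1.99. The 16 summed to 709 to 1124 CPM with isotype and to 395 to 455 CPM with anti-CSF1R. Without Csf1r, the most abundant, the sum was 471 to 578 CPM with isotype and 330 to 393 CPM with anti-CSF1R. Of all genes tested 0.822% were called lower on all libraries. No macrophage marker was at 0 in all libraries, but Vsig4, the one not tested, had 0 to 2 counts, under the floor of 3. It stays among the 16 markers averaged below. Csf1r, the gene of the antibody's target, was among those that fell, from 238 to 549 CPM with isotype to 39.4 to 64.4 CPM with anti-CSF1R (edgeR adjusted p = 0.0156). Of 12 osteoclast markers 9 fell, and their sum went from 5963 to 13795 CPM to 2278 to 3061 CPM. The part of either cell type in the receptor values was not tested. The 10 monocyte markers held 1 gene that fell, Cx3cr1, at 9.09 to 17.1 CPM with isotype and 2.08 to 4.61 CPM with anti-CSF1R. Their sum (2353 to 2959 and 2649 to 3039 CPM) was 97.7% to 98.8% Fn1, an abundant matrix gene, and the other 9 summed to 43.9 to 55.3 and 32.5 to 67.3 CPM. Ms4a4c was higher and Clec4a1 lower without overlap, and Ccr2 overlapped at 2.08 to 6.51 and 5.45 to 10.7 CPM, none of the 3 called. The 12 neutrophil markers had 0 called (135 to 346 and 124 to 341 CPM). The 12 B cell markers had 0 called by edgeR (82.1 to 101 and 77.6 to 105 CPM, or 40.8 to 74.7 and 28.8 to 54.5 CPM without Ebf1, the most abundant). The 12 dendritic cell markers held 1 that fell, Itgax (102 to 197 and 103 to 117 CPM, or 38.5 to 102 and 35.0 to 48.2 CPM without Zbtb46, the most abundant). The 10 endothelial markers had 0 called on all libraries. Their sum (670 to 786 and 794 to 893 CPM) and 5 of the 10 genes were higher with anti-CSF1R without overlap, as were 6.61% of all genes. Tie1, Cldn5, Egfl7, Esam and Erg overlapped, with log2 fold changes of -0.16, -0.34, -0.10, -0.10 and 0.45. Without isotype 3 and 4 these were 0.14, 0.28, 0.25, 0.18 and -0.02. The part of endothelial cells in the Tlr3 values was not tested. The 8 fibroblast markers also had 0 called (7749 to 10074 and 8745 to 9534 CPM, or 1516 to 3963 and 3778 to 3900 CPM without Col3a1, the most abundant). Col3a1, Col14a1 and Dpt were lower and Fap higher without overlap. Skeletal muscle markers, 0 of 6 called, summed to 67.8 CPM in isotype 3 against 6.33 to 26.4 CPM in the other 7.

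Set against the mean log2 CPM of the macrophage markers in the same library, 7 of the 10 receptors were higher with anti-CSF1R without overlap and 3, Tlr1, Tlr7 and Tlr8, overlapped. Of all genes tested 83.6% were higher without overlap on this scale, on which a level gene is higher because 8 of the markers fell, so the count says nothing particular about the receptors. The difference in means was 2.74 for Tlr3, 2.28 for Tlr4 and 1.57 for Tlr6 and Tlr13. Without isotype 3 and 4 it was 1.65 and 1.40 for Tlr3 and Tlr4 and -0.12 and -0.08 for Tlr7 and Tlr8. These last values depend on how the markers are summarised: with their median in place of the mean they were 0.96 and 1.00, and 10 of 10 receptors were higher without overlap, as were 96.7% of all genes tested.

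Spi1, which encodes the myeloid transcription factor PU.1, was the single gene called among 100 tested partners and relatives of the receptors. Of all genes tested 0.846% were called, so the count is close to that of all genes. The isotype libraries held 39.3, 105, 73.9 and 42.6 CPM, the anti-CSF1R libraries 16.8, 16.7, 17.8 and 10.4 CPM. The groups were far apart, with isotype 3 and 4 highest. It fell by 2.08 ± 0.34 on the log2 scale (edgeR adjusted p = 0.0318), and by 1.41 without isotype 3 and 4 (edgeR adjusted p = 0.0207). The other 10 transcription factors were not called on all libraries, and the median of the 11 was -0.35, or -0.11 without isotype 3 and 4.

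Of 13 co-receptor, chaperone and processing genes, 0 were called by edgeR on all libraries (median -0.44, and -0.15 without isotype 3 and 4). Without isotype 3 and 4, 1 was lower and 1 higher (2.38% and 0.679% of all genes), and with the offset 2 were lower (2.16%). The next 3 genes are named after their values were seen because they make up these counts. Ly86, the secreted partner of the TLR4-like protein CD180, stood at 3.48, 3.25, 3.30 and 4.47 CPM with isotype and at 1.39, 1.66, 2.31 and 0.957 CPM with anti-CSF1R, which gave -1.20 ± 0.27 on the log2 scale (edgeR adjusted p = 0.0959). Its isotype libraries lay close together, and it passed without isotype 3 and 4 and under the offset (edgeR adjusted p = 0.0455 and 0.0284). Cd14, which hands lipopolysaccharide to TLR4, stood at 3.19, 8.48, 6.19 and 3.46 CPM with isotype and at 2.01, 1.95, 2.02 and 1.29 CPM with anti-CSF1R. The groups did not overlap, and it passed with the offset but not without isotype 3 and 4 (edgeR adjusted p = 0.0235 and 0.0621). Cd36, a scavenger receptor that presents lipids to TLR2 and is also found on endothelium and fat cells, was higher. It stood at 35.6, 13.4, 7.96 and 31.5 CPM with isotype and at 45.3, 47.9, 49.5 and 51.9 CPM with anti-CSF1R. Isotype 3 and 4 were lowest, and on all libraries its log2 fold change was 1.14 ± 0.42 (edgeR adjusted p = 0.277). It passed without isotype 3 and 4 (0.53 ± 0.08, edgeR adjusted p = 0.00539) and not with the offset (0.71 ± 0.17, 0.0614). Hsp90b1 and Lgmn, the most abundant of the group, showed 0.64 and -0.72 as log2 fold changes (edgeR adjusted p = 0.315 and 0.241). Unc93b1, the chaperone that carries nucleic acid sensing receptors to endosomes, was at 39.6 and 43.5 CPM in isotype 2 and 5, at 69.2 and 56.5 CPM in isotype 3 and 4, and between 33.1 and 37.9 CPM with anti-CSF1R. It is named beside the receptors it serves and did not pass (edgeR adjusted p = 0.277).

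Signalling genes downstream of the receptors came next. Of 21 adaptors and kinases 0 were called by edgeR on all libraries and 0 without isotype 3 and 4, with medians of -0.01 and -0.02. With the offset 2 were lower, Pik3ap1, the adaptor BCAP (log2 fold change -1.17, edgeR adjusted p = 0.0120), and Sarm1, a TIR domain protein with NAD-cleaving activity (-0.87, 0.0365). Of all genes tested 2.16% were called lower with the offset. Tab2 and Irak1, the most abundant, had log2 fold changes of 0.39 and -0.01 on all libraries. Myd88 was at 34.6 and 32.0 CPM in isotype 2 and 5 and between 31.9 and 33.7 CPM with anti-CSF1R, while isotype 3 and 4 held 67.0 and 46.0 CPM. Ticam1, the gene of TRIF, was at 14.2 and 14.3 CPM in isotype 2 and 5, at 25.6 and 17.6 CPM in isotype 3 and 4, and between 12.4 and 13.1 CPM with anti-CSF1R. Myd88 and Ticam1 are named as the adaptors of the family, and neither passed on all libraries (edgeR adjusted p = 0.288 and 0.278).

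**Figure D5:**
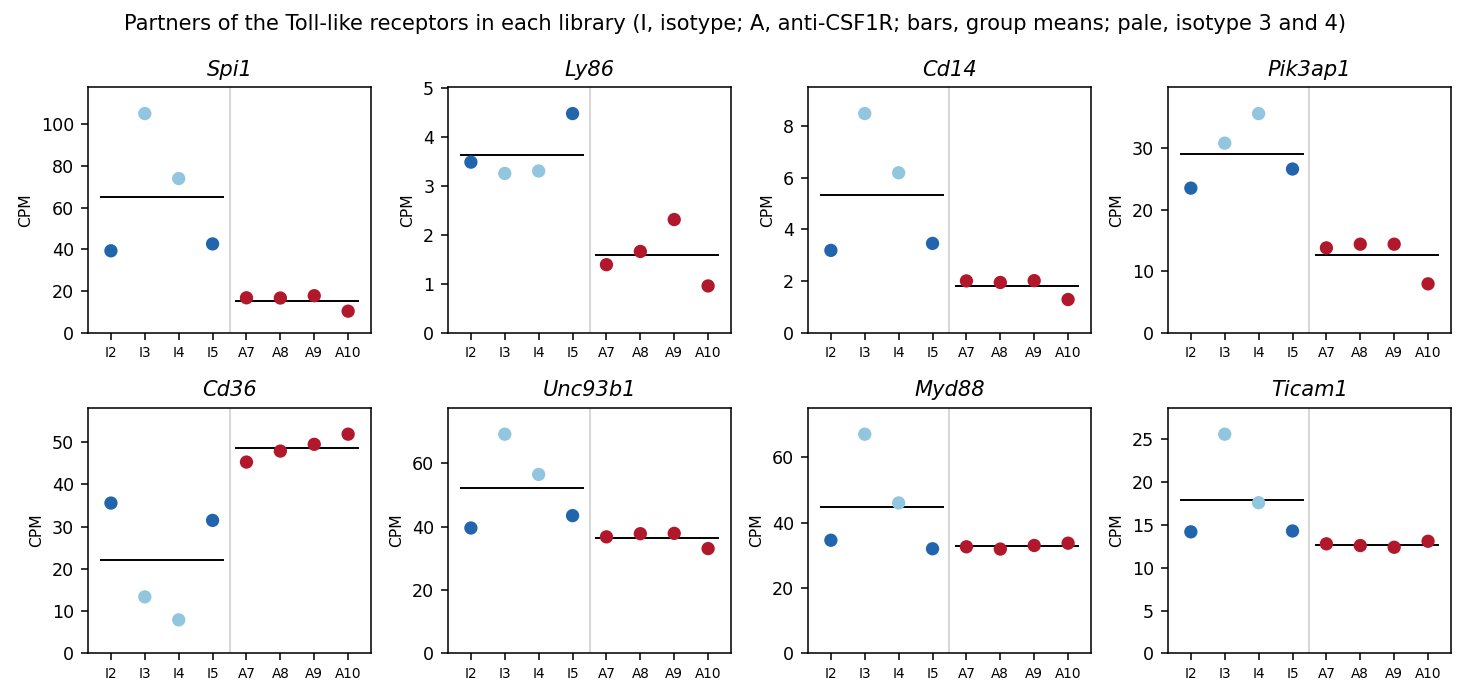
CPM (y axis, from 0) of 8 partner genes in isotype 2 to 5 (blue, pale for 3 and 4) and anti-CSF1R 7 to 10 (red), with bars at the group means. Spi1, Ly86, Cd14 and Pik3ap1 are lower and Cd36 higher with anti-CSF1R without overlap, and Myd88 lies between 31.9 and 34.6 CPM in the libraries other than isotype 3 and 4.

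Regulators and outputs of the pathway were not called on all libraries. Of 14 negative regulators 0 were called by edgeR (median -0.01, and -0.10 without isotype 3 and 4). The 1 gene called lower without isotype 3 and 4 was Nfkbia, the inhibitor of NF-kB (log2 fold change -0.35, edgeR adjusted p = 0.0218). Nfkb2, of the transcription factor list, was lower there too (-0.28, edgeR adjusted p = 0.0310). Of all genes tested 2.38% were called lower without isotype 3 and 4. Of 18 target cytokines and enzymes 12 had enough counts to test and 0 were called, with a median of 0.31 (0.22 without isotype 3 and 4). Il12a and Nos2, the most abundant of them, stood at 11.7 and 2.66 CPM with isotype and at 14.9 and 2.94 CPM with anti-CSF1R. Il1b, named after its values were seen, was the 1 of the 18 that did not overlap. It was higher, as were 6.61% of all genes, at 0.311 to 0.766 CPM with isotype and 0.990 to 1.59 CPM with anti-CSF1R. Its log2 fold change was 1.21 ± 0.32 (edgeR adjusted p = 0.151). Of 13 interferon response genes 0 were called (median -0.07, and -0.34 without isotype 3 and 4). Among 10 other innate sensors 0 were called (median 0.38, and 0.04 without isotype 3 and 4). Of 6 other tested receptors with a TIR domain 0 were called (median 0.43, and 0.09 without isotype 3 and 4). Il1r1, a receptor for interleukin 1, led them at 36.8 and 50.4 CPM (edgeR adjusted p = 0.289). The remaining Toll-like receptor rows of the table were barely detected, Tlr11 with 0 to 12 counts per library and Tlr12 with 8 to 34.

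The windows before the gene starts were examined because Spi1 fell and PU.1 binds ETS-type motifs of the letters GAGGAA and GGAAGT. RefSeq promoter entries (GRCm38.p6) matched 8 of the 10 genes, and the build behind the counts was not settled. The 250 bases upstream of the start are shown for Tlr1 (the first of its entries), Tlr2, Tlr9, Tlr8 and Tlr3, the genes whose levels without isotype 3 and 4 did not overlap, Tlr5, whose window held no match, and Tlr7 aside. Capitals mark matches on either strand to GAGGAA, to GGAAGT, to an interferon-type motif (GAAA, any 2 bases, then GAAA) or to the AP-1-type TGANTCA.
Tlr1, minus strand, chr5:64933559-64933808: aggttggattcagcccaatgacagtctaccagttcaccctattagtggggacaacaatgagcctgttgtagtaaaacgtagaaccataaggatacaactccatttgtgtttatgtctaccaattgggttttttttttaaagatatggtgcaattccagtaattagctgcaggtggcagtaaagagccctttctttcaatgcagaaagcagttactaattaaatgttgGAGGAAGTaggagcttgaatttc
Tlr2, minus strand, chr3:83841609-83841858: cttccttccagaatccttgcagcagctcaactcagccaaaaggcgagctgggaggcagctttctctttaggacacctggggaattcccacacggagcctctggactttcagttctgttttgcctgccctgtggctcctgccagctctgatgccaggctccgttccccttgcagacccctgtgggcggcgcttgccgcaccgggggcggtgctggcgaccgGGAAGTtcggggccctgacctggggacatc
Tlr9, plus strand, chr9:106222348-106222597: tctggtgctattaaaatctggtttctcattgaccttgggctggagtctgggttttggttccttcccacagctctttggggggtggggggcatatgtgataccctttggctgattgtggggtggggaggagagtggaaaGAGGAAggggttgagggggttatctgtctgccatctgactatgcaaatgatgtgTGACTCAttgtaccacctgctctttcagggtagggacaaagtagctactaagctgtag
Tlr8, minus strand, chrX:167264330-167264579: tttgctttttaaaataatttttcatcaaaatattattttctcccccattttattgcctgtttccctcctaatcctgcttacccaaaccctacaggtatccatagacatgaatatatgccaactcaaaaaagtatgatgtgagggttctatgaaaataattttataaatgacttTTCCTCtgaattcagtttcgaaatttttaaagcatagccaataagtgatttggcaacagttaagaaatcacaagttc
Tlr3, minus strand, chr8:45410381-45410630: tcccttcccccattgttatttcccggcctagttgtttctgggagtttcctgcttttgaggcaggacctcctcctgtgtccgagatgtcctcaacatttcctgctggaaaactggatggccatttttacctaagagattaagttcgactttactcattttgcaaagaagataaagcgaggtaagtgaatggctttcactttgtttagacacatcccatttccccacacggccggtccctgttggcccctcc
In the Tlr1 window GAGGAA and GGAAGT overlapped as GAGGAAGT, 23 bases before the start. GGAAGT stood 30 bases before the start of Tlr2, and GAGGAA 112 bases before that of Tlr9, on the gene's strand. Tlr8 held GAGGAA on the opposite strand, 77 bases before the start, and the Tlr3 window held no match to the letters searched. Tlr13, not shown, held GAGGAA 83 bases before its start. The first entry of Tlr6 held GGAAGT and 2 overlapping interferon-type matches on the opposite strand, and the other entries of Tlr1 and Tlr6 held none. The windows shown do not stand for the family. Tlr5 was lower without isotype 3 and 4 and held no match, while Tlr6 and Tlr13 overlapped and held matches. Over all 32851 promoter windows, 23.3% held GAGGAA, 19.7% GGAAGT, 6.75% TGANTCA and 2.98% the interferon-type motif, so such matches are common and describe letters, not binding.

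For each receptor with a mean of at least 1 CPM, the 3 genes with the most similar pattern were found by Pearson correlation of log2 CPM over the 8 libraries. The points share the gap between isotype 3 and 4 and the rest, so high values are common. Tlr9 lay nearest to Csf2ra, Otulinl and Fcer1g (r = 0.992, 0.988 and 0.984), Tlr8 to Cd33, Evi2 and Nyap2 (0.981, 0.971 and 0.962) and Tlr7 to Tpp1, Evi2a and Prkcb (0.971, 0.967 and 0.954). Tlr13 lay nearest to Traf3ip3, Evi2b and Ptprc (0.929, 0.910 and 0.905), the last being the leukocyte marker CD45. Tlr2 lay nearest to Lif, Anapc15 and Il10rb (0.989, 0.980 and 0.980), and Tlr5 to Irf5, Crybg1 and Rtl3 (0.971, 0.944 and 0.939). Tlr3 lay nearest to Slc38a9, Aldh6a1 and Erap1, Tlr4 to Gmps, Dync2h1 and Ppp4r2 (each r of 0.998 or more), and Tlr6 to Epg5, Birc3 and BC037032 (0.966 to 0.975). Over the 6 libraries without isotype 3 and 4, Csf2ra remained among the nearest 3 of Tlr9 (0.995) and Evi2 among those of Tlr8 (0.996), and the nearest 3 of the other 7 receptors were different genes.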

How the data were processed

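Poly(A) RNA of 8 parietal bone libraries was sequenced in pairs with a stranded kit, per the labels' protocols. The authors deposited raw counts per gene symbol in a single table of 27133 rows. Per the submitters' processing notes, STAR 2.7.10b and featureCounts 1.6.3 were used, and GRCm38 and GRCm39 appear without a role. Annotation, strandedness and multi-mapping: not given in the sources used here. Counts were fitted once over all genes with edgeR 4.0.16 (R 4.3.3): filterByExpr, TMM, robust quasi-likelihood F-test, Benjamini-Hochberg, threshold 0.05. The filter kept 17028 genes and 10 of 10 receptors. CPM uses TMM library sizes, and 3 counts equal 0.0434 to 0.0522 CPM. Alternatives were DESeq2 1.42.0, limma-voom 3.58.1, RLE factors, no factors, no filter, 1 CPM in 4 libraries, counts halved, each library left out, isotype 2 and 5 only, and a per-library GC and length offset (splines, 5 degrees of freedom, GENCODE M21, 94.0% of genes). Added after the values were seen: ratios to Tlr4 and Tlr3, patterns over 6 libraries, and lists under isotype 2 and 5 only and the offset. The genes and lists were chosen with earlier results of these data known. Named are the 10 receptors, up to 4 called genes per pathway list or else the 2 most abundant, and the 3 genes nearest to each receptor. The fit was tested on simulated counts with known changes. These had a single fixed dispersion and no GC shift between libraries, so they do not cover the gap seen in isotype 3 and 4.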

Additional observations from a re-analysis of the deposited data

How the results depend on the processing

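The number of genes called over the whole table was 144 with edgeR on all libraries, 536 with isotype 2 and 5 only, 452 with the GC and length offset and 777 with DESeq2. Leaving out 1 library gave 0 to 260 genes, with 0 without anti-CSF1R 7 or 8, 4 without 9, 14 without 10, 35 without isotype 4, 106 without isotype 3, 260 without isotype 2 and 234 without isotype 5. The count of receptors called was 0 with edgeR, 1 with isotype 2 and 5 only (Tlr7) and 2 with DESeq2 (Tlr2 and Tlr9), and 0 under each fit without 1 library, where 2 or 3 of 10 had an unadjusted p under 0.05. Of the single receptors' values under the alternatives, 159 kept direction and side of the threshold, 3 passed it and 7 changed sign without passing it. The log2 fold change of Tlr6 went from 0.12 to -0.18 with isotype 2 and 5 only, -0.13 with the offset and -0.02 without isotype 3 (-0.02 to 0.23 over the fits without 1 library). That of Tlr13 went from 0.18 to -0.24, -0.17, -0.01 without isotype 4 and -0.03 without anti-CSF1R 8 (-0.03 to 0.42). The cause was not tested. With library size alone the median of all genes was 0.19, against 0.03 with TMM factors, and that of the receptors -0.30. Tlr1 was not tested under the filter of 1 CPM in 4 libraries. No paired analysis was possible because the groups share no replicate numbers.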
